A study of Mus musculus with 8 samples.

Results

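The enzymes that make or break down arginine, proline and polyamines were followed in mammary epithelium of pregnant mice (day 14.5) with and without Bmpr1a deletion in the basal layer. They are the arginases Arg1 and Arg2, the arginine-making enzymes Ass1 and Asl, the ornithine and proline enzymes Oat, Aldh18a1 and Pycr1, and the polyamine enzymes Odc1, Srm and Sms. These 10 genes were found by name among the 55933 genes of the deposited table, with 1 row each. They were chosen on the FPKM of these same libraries, after Arg2 had been seen to differ between the groups, so their differences are given as a description and not as a test.

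The cKO mice carried K14-rtTA, teto-Cre and Bmpr1a fl/fl, so that doxycycline, given in the drinking water until collection, turns on Cre where the K14 promoter is active (basal, myoepithelial cells) and removes Bmpr1a, a type I receptor for bone morphogenetic proteins. The controls were littermates that the sample labels call WT. Their exact genotype is not given in the sources used here, nor is whether they drank doxycycline. All mice were C57BL/6 females, and each of the 8 libraries (4 control, 4 cKO) came from the epithelial cells of a single mouse, released with collagenase and hyaluronidase and not sorted by layer. The values are FPKM, which count fragments per length of gene and per library size. The sizes implied by the FPKM matched size factors (ratio 1 in all 8 libraries), the median over genes of each library's reads relative to the others. The deposited length is 1 number per gene, 1428 bases for Arg2 with 1 annotated transcript and 4831 for Asl with 8. Levels of different genes are thus set side by side per that length and depend on it. In such bulk RNA, fewer cells of a type and less RNA per cell cannot be told apart.

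Arginase splits arginine into ornithine and urea. Arg1 encodes the cytosolic form that serves the urea cycle in liver, and Arg2 encodes a mitochondrial form found in many other tissues. Ornithine then has more than one fate: ornithine aminotransferase (Oat) turns it into pyrroline-5-carboxylate, which pyrroline-5-carboxylate reductases such as Pycr1 reduce to proline, and ornithine decarboxylase (Odc1) turns it into putrescine, which Srm and Sms extend to spermidine and spermine. Aldh18a1 supplies pyrroline-5-carboxylate from glutamate instead, and Ass1 and Asl rebuild arginine from citrulline. The mammary gland is known to make proline from arginine, and caseins, the main milk proteins, are rich in proline.

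Each library held between 16123108 and 19896988 reads on genes. Bmpr1a itself was 8.74 to 11.7 FPKM in the control libraries and 10.2 to 12.03 in the cKO libraries, and its mean was not lower in the cKO libraries (log2 difference 0.13, standard error 0.10, adjusted p = 0.560 from limma). This value covers the whole gene in all cells collected and does not single out the deleted part, so it gives no check of the labels. Wap, a whey protein of milk and one of the 10 milk genes below, was 38.5 ± 18.1 FPKM in the controls against 186 ± 91.7 in the cKO mice (SD, n = 4 each, no overlap, limma adjusted p = 0.0340). Markers of both epithelial layers were abundant, with the 4 luminal markers Krt8, Krt18, Epcam and Cldn7 summing to 3711 to 4931 FPKM per library. The 6 myoepithelial markers summed to 1536 to 2076 FPKM in the control and 1427 to 1960 in the cKO libraries. Of these 6, 3 had a higher mean in cKO and 3 a lower one, with 0 at an adjusted p under 0.05 by limma. Krt14 and Trp63 were lower at an unadjusted p under 0.05 (2 of 6, against 7.53% of all genes), and Trp63 did not overlap. Their part in the enzymes' values was not tested. The 10 milk genes summed to 4174 to 6038 FPKM in the control and 9201 to 16315 in the cKO libraries, with 4 of 10 higher in cKO at an adjusted p under 0.05 by limma (Benjamini-Hochberg) and 7 of 10 by limma-voom on reads recovered from the FPKM. The groups did not overlap for 9 of the 10.

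The proline and polyamine branches part at ornithine, and 4 promoters are shown to set the starts of these branches side by side, those of the 3 ornithine and proline enzymes and that of Odc1, the most abundant enzyme. The RefSeq promoter table (GRCm38.p6) matched 6 of the 10 enzymes by symbol, with 7 entries, namely Ass1, Oat, Aldh18a1, Pycr1, Odc1 and Sms. Each line gives the 250 bases before the RefSeq start, 5′ to 3′ on the gene's strand, at chr7:132576399-132576648 (minus strand) for Oat, chr19:40588464-40588713 (minus) for Aldh18a1, chr11:120643749-120643998 (minus) for Pycr1 and chr12:17544623-17544872 (plus) for Odc1. For Odc1 and Pycr1 the RefSeq start lies inside the gene as the GENCODE coordinates below give it, so the last bases of these lines are within that gene. Capitals mark matches, on either strand, to 6 motifs. The TATA box was searched as TATAAA and the E-box was searched as CACGTG. The GC box was searched as GGGCGG and the CCAAT box by the letters of its name. The C/EBP-ATF response element was searched by its core TGATGNAA. The element bound by STAT factors was searched as TTCNNNGAA.
Oat: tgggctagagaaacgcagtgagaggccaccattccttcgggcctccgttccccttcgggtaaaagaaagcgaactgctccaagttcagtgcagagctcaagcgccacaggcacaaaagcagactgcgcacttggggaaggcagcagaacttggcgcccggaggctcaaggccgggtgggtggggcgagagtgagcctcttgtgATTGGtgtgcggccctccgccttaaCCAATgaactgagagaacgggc
Aldh18a1: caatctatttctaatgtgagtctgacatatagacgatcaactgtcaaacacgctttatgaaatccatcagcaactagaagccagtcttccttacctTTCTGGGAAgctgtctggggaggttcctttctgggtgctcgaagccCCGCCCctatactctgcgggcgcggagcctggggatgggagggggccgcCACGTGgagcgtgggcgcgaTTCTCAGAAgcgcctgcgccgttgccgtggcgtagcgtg
Pycr1: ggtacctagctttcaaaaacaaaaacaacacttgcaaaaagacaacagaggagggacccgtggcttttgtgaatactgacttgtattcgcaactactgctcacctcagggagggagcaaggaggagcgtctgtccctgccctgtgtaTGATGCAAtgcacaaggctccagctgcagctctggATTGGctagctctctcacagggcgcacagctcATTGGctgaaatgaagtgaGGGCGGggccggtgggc
Odc1: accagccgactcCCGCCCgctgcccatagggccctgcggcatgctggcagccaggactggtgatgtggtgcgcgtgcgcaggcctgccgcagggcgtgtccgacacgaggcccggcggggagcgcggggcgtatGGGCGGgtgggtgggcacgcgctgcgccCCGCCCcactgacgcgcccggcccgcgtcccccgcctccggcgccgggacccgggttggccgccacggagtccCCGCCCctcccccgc
No marked matches overlapped in these 4 sequences. Odc1 had 4 GC boxes and none of the other 5 motifs, in a stretch with 80.0% G and C, against a median of 52.4% over the 32851 promoters of the table. Oat had 2 CCAAT matches and no other. Pycr1 had 2 CCAAT matches, 1 GC box and 1 match to TGATGNAA, which 3.45% of all promoters hold. Aldh18a1 had 1 E-box, 1 GC box and 2 matches to TTCNNNGAA, which 7.02% of all promoters hold at least once. Among all promoters, 12.4% held a TATA box, 33.8% CCAAT, 6.02% an E-box and 32.7% a GC box. These matches are descriptions of the letters and not of binding.

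Arg2 had the largest difference of the 10 enzymes. It lies on the plus strand of chromosome 12 of GRCm38 from 79130777 to 79156301 (ENSMUSG00000021125), with 1 annotated transcript of 8 exons. Taken in replicate order, the control libraries read 9.21, 9.02, 10.7 and 11.1 FPKM and the cKO libraries 20.2, 22.0, 22.2 and 29.4 FPKM. Every cKO library lay above every control library, and the lowest cKO value was well clear of the highest control value. Mean FPKM went from 10.003 ± 1.04 in the controls to 23.5 ± 4.07 in the cKO mice (SD, n = 4 each), 2.35 times as high, with a difference of 1.14 in log2(FPKM + 1) (standard error 0.12). Within replicates 1 and 2 the log2 difference was 1.13, and within replicates 3 and 4 it was 1.16. The libraries of each such set deviated together across genes, although no label names a batch.

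The reads behind Arg2 ran from 223 to 780 per library, so counting error was small beside the difference. Of its 1428 exon bases, 285 (19.96%) are shared with exons of Vti1b and 116 (8.12%) with Gm48780, both on the other strand, and the counting is not stated to use strand. Vti1b, a SNARE protein of vesicle fusion, averaged 25.3 ± 1.85 FPKM in the controls against 25.6 ± 2.39 in the cKO mice (SD, n = 4 each). Its log2 difference was 0.01, with a standard error of 0.08 and an adjusted p of 0.954 (limma). Gm48780 had at most 5 reads in a library. The part of these overlaps in the Arg2 value was not tested.

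Arg1 was the lowest of the 10 in every library, on 27 to 60 reads. It lies on chromosome 10 from 24915221 to 24927484. In replicate order, the controls read 0.699, 1.04, 1.58 and 1.24 FPKM and the cKO libraries 1.40, 1.33, 1.22 and 1.33 FPKM. The control libraries spread over more than the whole cKO range, and the groups overlapped. This made means of 1.14 ± 0.370 for control and 1.32 ± 0.0749 for cKO (SD, n = 4 each) and a log2 difference of 0.13 (standard error 0.12) that came to 0.35 for replicates 1 and 2 alone and -0.08 for replicates 3 and 4 alone. It was 0.24 with a pseudocount of 0.1 and 0.27 with limma-voom, and it ran from 0.03 without control replicate 1 to 0.23 without control replicate 3. Arg2 held 89.9% ± 2.38 of the summed arginase FPKM in the controls against 94.6% ± 0.897 in the cKO mice (SD, n = 4 each). Its share was 87.1% to 92.9% in control and 93.5% to 95.7% in cKO, so in both groups the mitochondrial form accounted for most arginase RNA per length. The change in this share carries the difference by which Arg2 was chosen.

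**Figure D1:**
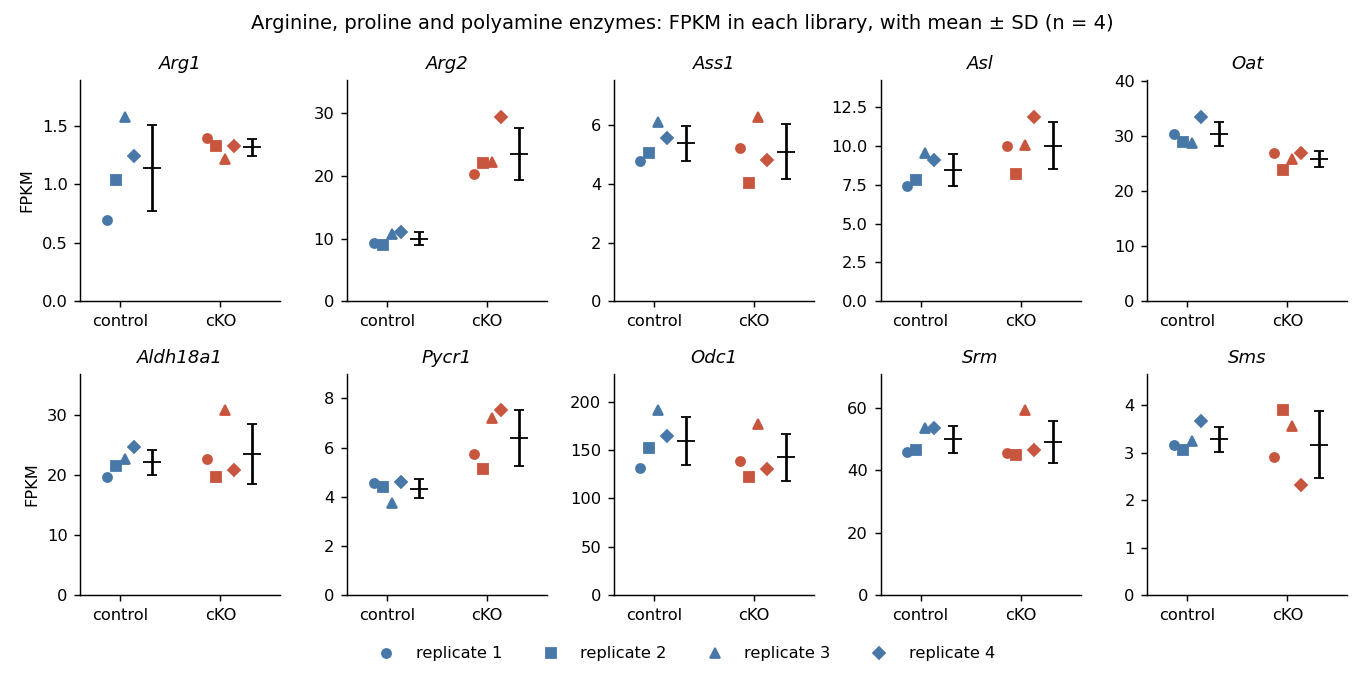
FPKM of each of the 10 enzymes (vertical axes, each from 0) in the 4 control and 4 cKO libraries, with a marker for each replicate number and the mean with its SD beside each group. Arg2 and Pycr1 have every cKO library above every control library, Oat has every cKO library below, and the other 7 overlap.

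Oat, at the entry from ornithine to proline, had a lower mean in cKO. It lies on chromosome 7 from 132557478 to 132576398. In replicate order, the controls read 30.5, 28.9, 28.8 and 33.6 FPKM and the cKO libraries 27.0, 23.9, 25.8 and 27.1 FPKM. All cKO libraries were below all control libraries, though the gap between the groups was narrow. This made means of 30.4 ± 2.24 for control and 25.96 ± 1.46 for cKO (SD, n = 4 each) and a log2 difference of -0.22 (standard error 0.07), with -0.22 within replicates 1 and 2 and -0.23 within replicates 3 and 4. Oat RNA was 3.06 ± 0.272 times that of Arg2 per length in the controls against 1.13 ± 0.173 times in the cKO mice (SD, n = 4 each), and in cKO replicate 4 the ratio was 0.920. Much of this ratio's change is the difference by which Arg2 was chosen.

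Pycr1, the reductase that closes proline synthesis, had a higher mean in cKO. It lies on chromosome 11 from 120635712 to 120643769, and 247 to 549 reads stood behind it. In replicate order, the controls read 4.55, 4.42, 3.75 and 4.62 FPKM and the cKO libraries 5.74, 5.13, 7.201 and 7.51 FPKM. The groups did not overlap, and cKO replicates 3 and 4 were higher than cKO replicates 1 and 2. This made means of 4.33 ± 0.399 for control and 6.40 ± 1.14 for cKO (SD, n = 4 each) and a log2 difference of 0.46 (standard error 0.12). Replicates 1 and 2 alone gave 0.23 and replicates 3 and 4 alone gave 0.69.

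Aldh18a1, which feeds the same intermediate from glutamate, lies on chromosome 19 from 40550257 to 40588463. It was 19.7, 21.5, 22.7 and 24.7 FPKM in control and 22.7, 19.6, 30.8 and 20.9 in cKO replicates 1 to 4. The groups overlapped widely, and cKO replicate 3 stood above the other 7 libraries. Its log2 difference was 0.07 (standard error 0.13) and was -0.07 when cKO replicate 3 was left out. Per length, Aldh18a1 was 5.15 ± 0.737 times Pycr1 in the controls against 3.71 ± 0.646 times in the cKO mice (SD, n = 4 each), with ranges of 4.33 to 6.07 and 2.79 to 4.28 that did not overlap.

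Ass1 and Asl act in sequence to rebuild arginine. Ass1, on chromosome 2 from 31470207 to 31520672, was 4.78 to 6.11 FPKM in control (median 5.30) and 4.04 to 6.29 in cKO libraries (median 5.01). Asl, on chromosome 5 from 130011258 to 130029247, was 7.41, 7.82, 9.57 and 9.13 FPKM in control and 10.005, 8.18, 10.05 and 11.9 in cKO replicates 1 to 4. The control range of Ass1 lay inside its cKO range. For Asl, 3 cKO libraries were above all control libraries while cKO replicate 2 was not. The log2 difference was -0.08 (standard error 0.12) for Ass1 and 0.21 (standard error 0.12) for Asl. Asl was 1.55 to 1.64 times Ass1 per length in the control libraries and 1.599 to 2.48 times in the cKO libraries, and these ranges overlapped.

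Odc1 and Srm had the highest levels of the 10 and Sms a low one, and the groups overlapped for all 3 polyamine enzymes. Odc1, the first and rate-limiting enzyme of polyamine synthesis, lies on chromosome 12 from 17544794 to 17551505. It was 132, 152, 191 and 164 FPKM in control and 139, 122, 177 and 131 in cKO replicates 1 to 4, on 6870 to 10890 reads. The groups overlapped and replicate 3 was the highest library of each. This made means of 160 ± 24.8 for control and 142 ± 24.1 for cKO (SD, n = 4 each) and a log2 difference of -0.17 (standard error 0.14). Per length, the Odc1 value was 15.95 ± 1.67 times that of Arg2 in the controls against 6.21 ± 1.54 times in the cKO mice (SD, n = 4 each), with no overlap between 14.3 to 17.8 and 4.45 to 7.98. Since Arg2 was chosen for its difference, this ratio restates it and is no separate result.

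Srm, which makes spermidine, lies on chromosome 4 from 148591503 to 148594993. It was 46.0, 46.5, 53.5 and 53.6 FPKM in control and 45.5, 45.0, 59.2 and 46.5 in cKO replicates 1 to 4. Apart from cKO replicate 3, the cKO libraries lay near the lower control libraries. Sms, which makes spermine, lies on chromosome X from 157443855 to 157492287 and was 3.06 to 3.67 FPKM in control (median 3.21) and 2.31 to 3.89 in cKO (median 3.25). The log2 difference was -0.03 (standard error 0.10) for Srm and -0.05 (standard error 0.12) for Sms. Sms-ps, a processed pseudogene of Sms, is listed at 4.30 to 7.16 FPKM, so reads of Sms may be split with its copy and the Sms level is uncertain.

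All 10 enzymes passed the filter on low values. Of them, 3 had groups that did not overlap, 2 with the cKO libraries higher and 1 with them lower, where 10.7% of the 15143 genes tested did not overlap (6.1% higher and 4.6% lower). At an adjusted p under 0.05 limma called 1 of the 10, Arg2, against 0.892% of all genes tested (0.588% higher and 0.304% lower). At an unadjusted p under 0.05 it called 2 higher and 1 lower, against 16.4% of all genes (8.85% higher and 7.53% lower). The Arg2 call ended when control replicate 1, 2 or 4 was left out. As the enzymes were chosen on this contrast, nothing is read from these counts. The median log2 difference was 0.02 over the 10 and 0.00 over all genes tested, with 5 enzymes above 0 and 5 below. Beside these values, 4 of the 10 milk genes were higher in cKO at an adjusted p under 0.05 by limma and 7 by limma-voom, and so by both was 1 of the 3 adipocyte markers tested, Cidec. The 4 adipocyte markers summed to 77.5 to 119 FPKM in control and 98.3 to 130 in cKO (Plin1, at a mean of 0.144, was under the filter on low values). Most of this sum was Fabp4, at means of 96.7 FPKM in control and 111 in cKO. Adipoq averaged 0.303 FPKM in control and 1.25 in cKO, with overlap, and Cidec 0.386 and 1.56, without overlap. The part of these cells in the enzymes' values was not tested.

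The order of the levels per length was the same in all 4 control libraries. From the highest it ran Odc1, Srm, Oat, Aldh18a1, Arg2, Asl, Ass1, Pycr1, Sms and Arg1, from a mean of 160 to a mean of 1.14 FPKM. Neighbours in this order did not overlap over the control libraries, except Arg2 and Asl, whose means of 10.003 and 8.48 were within the spread of the libraries. In the cKO libraries Odc1, Srm, Asl, Sms and Arg1 kept their ranks. Pycr1 stood above Ass1 in 4 of 4 cKO libraries, where it had been below in 4 of 4 control libraries. Arg2 passed Aldh18a1 in 2 of 4 cKO libraries and Oat in 1 of them. These orders depend on the length used for each gene. By reads, Asl (620 to 1067) was above Arg2 (223 to 780) in each library. Pycr1 (247 to 549 reads) was not below Ass1 (161 to 252 reads) in any library. In control, Odc1 was above 98.2% of the genes tested and Arg1 above 17.3%. The share of Arg2 in the summed FPKM of the 10 enzymes was 3.40% ± 0.194 in the controls against 8.18% ± 1.74 in the cKO mice (SD, n = 4 each), which again restates the difference by which Arg2 was chosen.

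**Figure D2:**
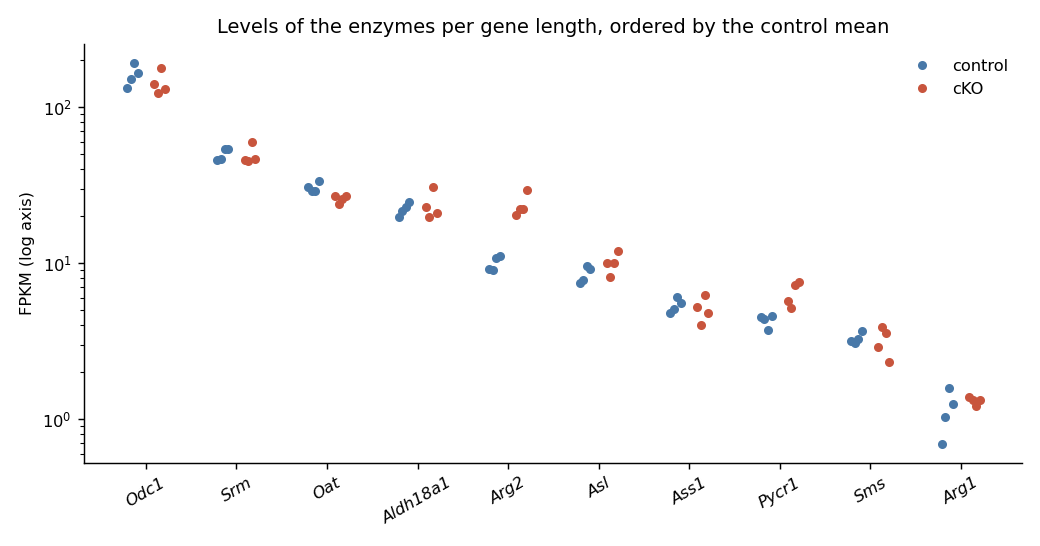
FPKM of the 10 enzymes on a log axis, ordered by the control mean, with 4 control points on the left and 4 cKO points on the right of each gene. The levels span from 0.699 FPKM for Arg1 to 191 FPKM for Odc1, and Arg2 moves from the level of Asl to that of Aldh18a1.

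Replicates of the same group spread by different amounts among the enzymes. In control, the SD was 7.35% of the mean for Oat and 32.4% for Arg1, the gene with the fewest reads. In cKO it ran from 5.64% for Oat to 22.2% for Sms. In cKO replicate 3, Odc1, Srm, Aldh18a1 and Ass1 each had the highest value of its group, while Arg2, Pycr1, Asl and Oat were highest in cKO replicate 4. That library also had the highest share of reads on the 10 milk genes, 7.24% against 4.51% to 5.62% in the other cKO libraries. Without it, the log2 difference of Arg2 was 1.03.

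The 49 further genes that supply, use or regulate arginine, proline and polyamines were read from the same fit. All 49 were in the table (Pycr3 as Pycrl), and 38 had a mean FPKM of at least 0.5 and were tested. Of these, 1 fell in cKO and 0 rose at an adjusted p under 0.05 (limma), against 0.892% of all genes tested. At an unadjusted p under 0.05, 4 were higher and 5 lower, against 16.4% of all genes, and limma-voom on reads recovered from the FPKM also called 1 of the 38. Their median log2 difference was -0.02, against 0.00 over all genes tested.

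The gene that fell was Nos2, on chromosome 11 from 78920787 to 78960254. It encodes the inducible nitric oxide synthase, which uses the same substrate as arginase. In replicate order, the controls read 30.4, 28.3, 18.2 and 27.5 FPKM and the cKO libraries 14.7, 14.4, 14.3 and 12.5 FPKM. The cKO libraries lay close together and below every control library, of which replicate 3 was the lowest. The mean fell from 26.1 ± 5.42 to 13.98 ± 1.01 FPKM (SD, n = 4 each), a log2 difference of -0.83 with a standard error of 0.15 (limma, adjusted p = 0.0441). Replicates 1 and 2 alone gave -0.96 and replicates 3 and 4 alone gave -0.70. The adjusted p stayed under 0.05 in 7 of 18 alternative fits and ran from 0.0182 to 0.123 over them, with a log2 difference between -0.99 and -0.75. It was above 0.05 when any library except control replicate 3 was left out.

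The FPKM of Arg2 was 0.403 ± 0.131 times that of Nos2 in the controls against 1.70 ± 0.442 times in the cKO mice (SD, n = 4 each), with ranges of 0.303 to 0.588 and 1.37 to 2.35. Nos2 was thus the more abundant of these RNAs per length in each control library and Arg2 in each cKO library. Arg2 was chosen for its rise, and Nos2 is set beside it as the related gene called lower. The separation of this ratio thus follows from that choice and is no separate result. Nos2 and Arg1 are also known from activated macrophages. All 8 macrophage markers had a lower mean in cKO, summing to 277 to 379 FPKM in control and 169 to 282 in cKO, and Adgre1 did not overlap. None of the 8 had an adjusted p under 0.05 by limma or by limma-voom, and 4 were lower at an unadjusted p under 0.05 by limma, against 7.53% of all genes. None of the 8 was at 0 in a library. Their part in the fall of Nos2 was not tested. Nos3, the endothelial synthase, was 4.34 ± 0.390 and 3.51 ± 0.321 FPKM (SD, n = 4 each), with an adjusted p of 0.183 from limma. The 4 endothelial markers (61.9 to 70.8 FPKM summed in control, 44.7 to 69.1 in cKO) and the 5 fibroblast markers (373 to 783 and 256 to 610) also had lower means in cKO, with 0 of 9 at an adjusted p under 0.05 and 1 at an unadjusted p under 0.05 by limma.

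**Figure D3:**
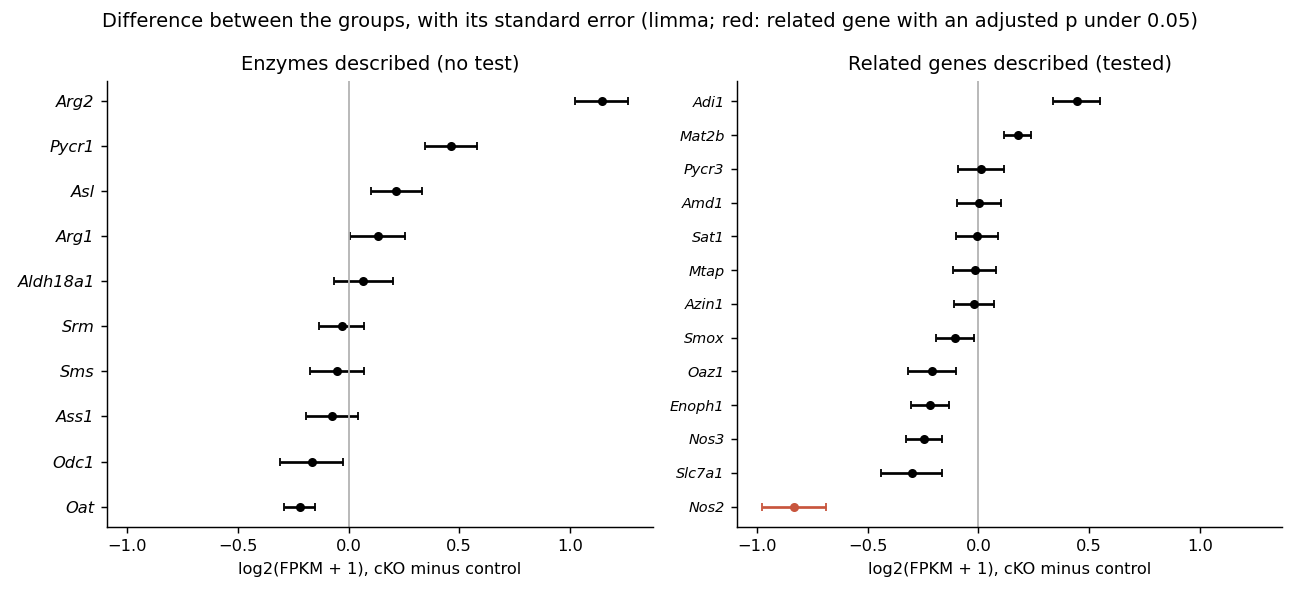
Difference in log2(FPKM + 1), cKO minus control, with its standard error, for the 10 enzymes on the left and on the right the 13 tested related genes whose values are given in the text. Arg2 lies at 1.14 and Pycr1 at 0.46 among the enzymes, and Nos2 at -0.83 is the related gene drawn in red for its adjusted p under 0.05.

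The mitochondrial steps of the urea cycle, which Arg1 serves in liver, were at or near 0 reads. Otc had 0 reads in every library, Cps1 had 4 reads in cKO replicate 3 and 0 in the other 7, and both encode the mitochondrial steps that make citrulline. Prodh, which breaks proline down, had 0 reads in every library, and a count of 0 allows up to 3 reads. Slc7a1, a cationic amino acid transporter that takes up arginine, was 15.2 ± 1.34 FPKM in the controls against 12.3 ± 2.74 in the cKO mice (SD, n = 4 each), with an adjusted p of 0.318 from limma.

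Pycr3, a cytosolic reductase of proline synthesis, was present beside Pycr1. It averaged 12.98 ± 1.497 FPKM over the controls against 13.1 ± 1.63 FPKM over the cKO mice (SD, n = 4 each), with an adjusted p of 0.973 from limma. Its mean was thus above that of Pycr1 per length in both groups. Of the 7 proline and glutamate genes tested, 0 had an adjusted p under 0.05 by limma or limma-voom, against 0.892% of all genes, and 1 had an unadjusted p under 0.05, against 16.4%. In this list 6 had a higher mean in cKO and 1 a lower one, at a median log2 difference of only 0.01. Over all 38 related genes tested, 15 were higher and 23 lower, where 7603 of all genes tested were higher and 7540 lower.

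Genes that regulate or reverse polyamine synthesis were read next. Oaz1, the antizyme that leads Odc1 protein to the proteasome, was 148 ± 14.2 FPKM in the controls against 128 ± 16.3 in the cKO mice (SD, n = 4 each, adjusted p = 0.375 from limma), close to Odc1 itself. Azin1, which binds antizyme in place of Odc1, was 23.2 ± 1.16 and 22.9 ± 2.92 FPKM (adjusted p = 0.933 from limma). Amd1, which makes the aminopropyl donor for Srm and Sms, was 28.0 ± 2.72 and 28.1 ± 3.57 (adjusted p = 0.993 from limma). The breakdown enzymes Sat1 and Smox were 92.2 ± 9.91 and 78.0 ± 4.89 FPKM in control and 91.6 ± 7.46 and 72.7 ± 7.65 in cKO (adjusted p = 0.977 and 0.597 from limma). Of the 12 regulation and breakdown genes tested, 1 was higher and 1 lower at an unadjusted p under 0.05, against 8.85% and 7.53% of all genes, and 0 passed after adjustment by limma or by limma-voom.

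Polyamine synthesis leaves methylthioadenosine, which a salvage pathway turns back into methionine. Mtap, its first enzyme, averaged 4.46 ± 0.369 FPKM over the controls against 4.42 ± 0.669 over the cKO mice (SD, n = 4 each, limma adjusted p = 0.952). The list of 7 genes tested also holds Mat2a and Mat2b, of the methionine adenosyltransferase that uses methionine and is not part of the salvage. Of the 7, 2 were higher and 1 lower at an unadjusted p under 0.05, against 8.85% and 7.53% of all genes, and 0 passed after adjustment by limma or by limma-voom. These 3, named after their values were seen, were Adi1, Mat2b and Enoph1. Adi1, a dioxygenase of the salvage pathway, was 7.51 ± 1.32 FPKM in control and 10.47 ± 0.440 in cKO, with no overlap (limma adjusted p = 0.0947). It had an adjusted p under 0.05 in the limma fit with the sets of replicates (1 and 2, 3 and 4) blocked. Mat2b was 7.53 ± 0.387 and 8.65 ± 0.340 FPKM, with no overlap (limma adjusted p = 0.193). Enoph1 was 4.96 ± 0.539 and 4.11 ± 0.370 FPKM, with overlap (limma adjusted p = 0.255).

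The 5 genes whose pattern over the 8 libraries was nearest to that of Arg2 were Acsl1, Snord42b, Csn2, Cd36 and Csn3. Nearness is the mean absolute distance between 2 genes in log2(FPKM + 1), each centred on its own mean, over 15133 genes. It was 0.094 for Acsl1, 0.095 for Snord42b, 0.105 for Csn2, 0.108 for Cd36 and 0.134 for Csn3, against a median of 0.574 over all genes. A gene with no variation would stand at 0.572, the mean absolute deviation of Arg2 itself, so this median is near that of no change. Acsl1 encodes an acyl-CoA synthetase and Cd36 a fatty acid transporter, with log2 differences of 1.02 and 0.93, which the measure itself selects for. Csn2 and Csn3 encode β-Casein and κ-Casein, with log2 differences of 1.02 and 0.95. Snord42b is a small nucleolar RNA of a host gene, Rpl23a, whose exon it overlaps on the same strand, and it rests on 2 to 8 reads per library, so its value and its place among the nearest genes are uncertain.

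**Figure D4:**
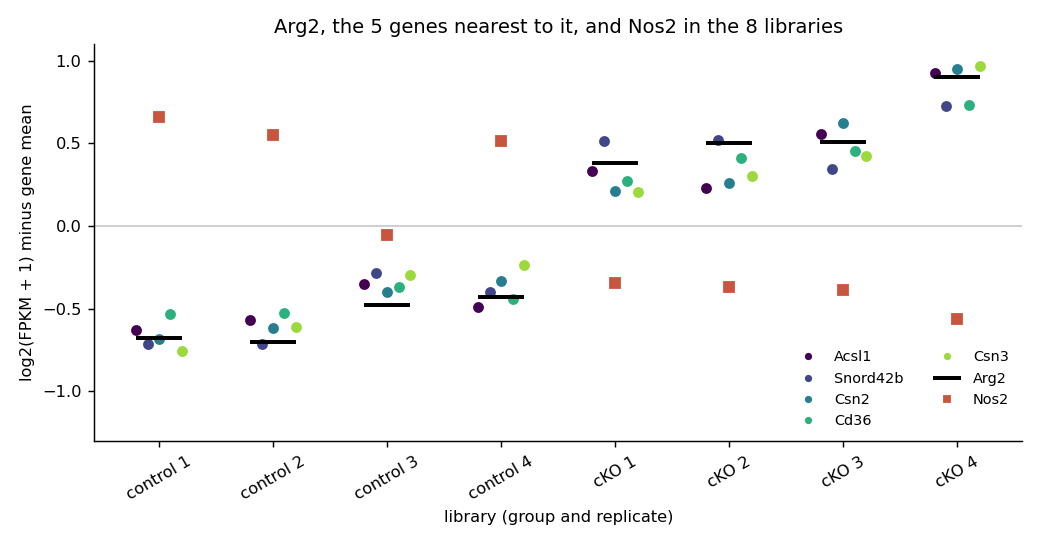
log2(FPKM + 1) minus each gene's own mean in the 8 libraries, for Arg2 (black bars), the 5 genes nearest to it (circles) and Nos2 (squares). Arg2 and its 5 neighbours are below 0 in the 4 control and above 0 in the 4 cKO libraries, with cKO replicate 4 the highest for each. Nos2 is at its lowest in cKO replicate 4 and lies near 0 in control replicate 3.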

How the data were processed

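RNA-seq libraries of mammary epithelial cells, 1 per mouse (4 control, 4 cKO), were used. The authors prepared them with the NEBNext Ultra kit, aligned them by Hisat2 (GRCm38), and deposited FPKM and gene lengths for 55933 genes. The submitters' processing notes also name StringTie 1.3.3b, featureCounts 1.5.0-p3 and mm9. GENCODE vM21 holds 55394 of the gene identifiers, 99.7% with identical start and end, so coordinates are GRCm38. Reads were recovered from FPKM and length, and 100% of values came out whole (tolerance 0.01 of a read).

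The deposited unit is FPKM, so the main test was limma 3.58.1 (R 4.3.3, empirical Bayes with trend, Benjamini-Hochberg adjustment) on log2(FPKM + 1), over 15143 genes whose FPKM averaged 0.5 or more. Limma-voom on the recovered reads was an alternative, and the DESeq2 test of the study's methods was not run. This scale understates the change of low genes. Groups came from the sample titles, and p-values measure the spread between mice. The members and lists were chosen with earlier results of these data known. Named genes are the 10 enzymes, related genes with an adjusted p under 0.05, 14 listed isozymes and regulators (1 is not reported here) and the 5 genes nearest to Arg2. Others are named where a count is small, after their values were seen. The fit was tested on simulated data. Python 3.11.15 (pandas 2.3.3, matplotlib 3.10.9) was used for other steps. Alternatives were another pseudocount, other filters, TPM, no trend, limma-voom, protein-coding genes, blocks and leaving out each library.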

Additional observations from a re-analysis of the deposited data

Results flagged for a closer look

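Among 43 groups of 4 libraries, for the 10 enzymes and the related genes named, 2 had an isolated library by Dixon's test, and chance alone gives about 2.15 (1 in 20 groups). Srm was 59.2 FPKM in cKO replicate 3 against 45.0 to 46.5 in the other cKO libraries, on 1502 reads against 1186 to 1404. Cps1 was 0.0453 FPKM in cKO replicate 3, which stands for 4 reads, against 0 in the other cKO libraries.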

How the results depend on the processing

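The number of genes called over all genes at an adjusted p under 0.05 was 135. It was 10 with no filter on low values, 252 with limma-voom, 266 with protein-coding genes alone, 50 with the replicate block and 442 when sets of replicates (1 and 2, 3 and 4) were blocked, and it ran from 0 to 78 when a library was left out (0 without control replicate 4, where 2134 genes had an unadjusted p under 0.05). TPM moved the split of higher and lower calls from 89 and 46 to 70 and 62. Of the related genes, 1 (Nos2) was called, but 0 with no filter, in TPM, in TPM without the milk genes in the sum and with the replicate block, 2 (Nos2 and Adi1) with the block by sets, and 0 to 1 with a library left out, with 6 to 12 at an unadjusted p under 0.05 in all of these fits. The log2 difference of Nos2 had an adjusted p of 0.0633 with the replicate block. Same-numbered control and cKO libraries deviated together with correlations over genes of 0.0797 to 0.137, not all above 0.1, while other numbers of the same set gave 0.0873 to 0.178, so the numbers were not taken as pairs.

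Arg2 kept a log2 difference of 1.03 to 1.22 in every alternative run, but its call ended when control replicate 1, 2 or 4 was left out. Pycr1 stayed above 0 (0.23 to 0.69), as did Asl (0.14 to 0.30), and Oat stayed below 0 (-0.28 to -0.17), as did Odc1 (-0.28 to -0.08). The signs of Arg1, Ass1, Aldh18a1, Srm and Sms changed in 1 to 4 alternatives each. With a library left out, the differences of related genes close to 0 also changed sign, ranging over -0.0591 to 0.0766 for Pycr3, -0.0724 to 0.0654 for Amd1, -0.0917 to 0.0529 for Azin1, -0.0852 to 0.0305 for Sat1 and -0.0922 to 0.0363 for Mtap. Arg1 rests on 27 to 60 reads per library.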
